A study of Mus musculus with 10 samples.

Results

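A set of 36 genes known from the epididymis and from sperm was followed in epididymal white adipose tissue of mice, a fat pad attached to the epididymis. The genes were chosen by their measured read levels, which were high in 1 or more of 3 of the 10 libraries (Srgn-knockout 3, Srgn-knockout 5 and wild-type 4), so their levels in those libraries are described here without a test. All 36 listed genes had a row among the 23930 amplicons of the assay. By role, 26 are genes of the epididymis, 6 are genes that other cell types are also known to express, and 4 encode proteins of sperm chromatin. The 5 Srgn-knockout (Srgn-/-) mice lack serglycin, a proteoglycan of secretory granules in blood-derived cells, and the 5 wild-type (Srgn+/+) mice served as their controls. All 10 were male C57BL/6 mice, 18 weeks old, fed a high sucrose and high fat diet for 8 weeks. Each genotype has 5 libraries, numbered in accession order.

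The epididymis is a coiled tube in which sperm leaving the testis mature and are stored. Its lining is divided into segments, from the initial segment through caput and corpus to cauda, and each segment secretes its own mixture of lipocalins, cystatins, defensins, RNase A relatives and other proteins onto passing sperm, largely under the control of androgens and of factors from the testis. Spermatids pack their DNA by exchanging histones for transition proteins and then for protamines, and mRNAs of these proteins can still be found in sperm.

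The promoters of 5 members are shown because they belong to the genes by which the 3 libraries differ. Gpx5 and Rnase10 were highest in Srgn-knockout 3, Rnase9 and Crisp1 in Srgn-knockout 5, and Prm2 in wild-type 4. The sequences are from RefSeq (GRCm38.p6) and run 5′ to 3′ from 250 bases before to 50 bases after the gene's start.
Gpx5, chr13:21292637-21292936, minus strand: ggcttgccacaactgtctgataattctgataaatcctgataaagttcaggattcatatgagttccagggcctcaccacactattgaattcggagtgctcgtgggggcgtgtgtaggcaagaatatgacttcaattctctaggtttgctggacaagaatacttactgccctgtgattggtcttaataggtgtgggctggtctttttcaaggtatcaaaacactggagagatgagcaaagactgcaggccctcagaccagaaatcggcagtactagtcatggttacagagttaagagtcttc
Rnase10, chr14:51007501-51007800, plus strand: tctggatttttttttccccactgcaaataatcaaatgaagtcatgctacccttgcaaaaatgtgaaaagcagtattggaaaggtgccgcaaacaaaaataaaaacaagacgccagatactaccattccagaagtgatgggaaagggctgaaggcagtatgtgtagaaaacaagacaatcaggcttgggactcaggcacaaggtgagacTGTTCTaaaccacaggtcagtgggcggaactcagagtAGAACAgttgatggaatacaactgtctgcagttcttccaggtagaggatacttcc
Rnase9, chr14:51041818-51042117, minus strand: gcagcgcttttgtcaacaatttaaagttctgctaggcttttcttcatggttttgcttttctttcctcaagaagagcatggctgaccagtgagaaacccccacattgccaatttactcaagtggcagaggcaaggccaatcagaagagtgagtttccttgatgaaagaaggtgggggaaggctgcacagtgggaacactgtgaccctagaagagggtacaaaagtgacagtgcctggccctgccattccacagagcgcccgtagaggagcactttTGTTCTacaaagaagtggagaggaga
Crisp1, chr17:40319158-40319457, minus strand: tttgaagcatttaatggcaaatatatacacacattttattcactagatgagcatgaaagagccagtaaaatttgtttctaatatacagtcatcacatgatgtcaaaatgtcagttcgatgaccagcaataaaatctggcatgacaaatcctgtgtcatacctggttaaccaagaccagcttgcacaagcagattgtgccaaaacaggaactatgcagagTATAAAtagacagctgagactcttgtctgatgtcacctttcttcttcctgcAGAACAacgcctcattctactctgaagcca
Prm2, chr16:10792056-10792355, minus strand: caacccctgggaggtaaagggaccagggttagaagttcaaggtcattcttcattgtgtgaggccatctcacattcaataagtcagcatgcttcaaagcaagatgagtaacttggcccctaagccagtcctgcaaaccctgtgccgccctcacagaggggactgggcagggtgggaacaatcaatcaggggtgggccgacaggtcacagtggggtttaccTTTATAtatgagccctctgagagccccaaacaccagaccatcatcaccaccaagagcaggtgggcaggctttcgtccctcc
Capitals mark matches, on either strand, to the letters of an androgen receptor half-site, TGTTCT. They also mark matches on either strand to the letters of a TATA box, TATAAA. A cAMP response element half-site, TGACG on either strand, was searched for as well. No marked match overlaps another in these 5 windows. Rnase10, Rnase9 and Crisp1 hold androgen receptor half-site letters, Crisp1 and Prm2 hold TATA box letters, and the Gpx5 window holds none of the motifs. The RefSeq table matched 30 of the 36 members with 33 promoter entries, and for Rnase10 the first of its 2 entries is printed. The androgen receptor half-site letters were in 13 of those 33 (39.4%), beside 18.97% of the 32851 promoters in the table. The cAMP response element letters were in 0 of 33, beside 20.8% of all promoters, and the TATA box letters in 3 of 33 (9.09%), beside 13.6%. These shares describe letters in the windows only.

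Each library held 7824764 to 10757779 reads. Levels are CPM, read counts scaled by the total of the library, and 3 reads, the limit that a count of 0 allows, correspond to 0.279 to 0.383 CPM. Each gene is read at 1 amplicon, and amplicons can differ in efficiency, so levels are compared between libraries within a gene and not between genes. Srgn averaged 0.349 ± 0.564 CPM in Srgn-knockout fat and 105 ± 24.3 CPM in wild-type fat (SD, n = 5 each), and the groups did not overlap. Where its amplicon lies relative to the deleted part is unknown here. The 10 adipocyte markers, among them Car3 and Fabp4, summed to 41713 to 63449 CPM in Srgn-knockout libraries and to 40826 to 71079 CPM in wild-type libraries, so all 10 libraries carried the labelled tissue's markers. Libraries of both genotypes stood apart in the genes described here. In bulk tissue, more cells of a type and more RNA per cell cannot be told apart.

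The 26 epididymal genes together were abundant in 3 libraries, low in a further library, and near 0 in the other 6. Their summed level in Srgn-knockout 1 to 5 was 2.27, 3.72, 8728, 2.94 and 1034 CPM. In wild-type 1 to 5 it was 29.4, 1.67, 3.86, 919 and 2.56 CPM. The sum in Srgn-knockout 3 thus exceeded that of every other library. Srgn-knockout 5 and wild-type 4 had sums of similar size, and wild-type 1 came next. These similar sums rested mainly on different genes. Crisp1 alone made up 846 of the 1034 CPM of Srgn-knockout 5, where 10 of the 26 genes had more than 3 reads. Of the 919 CPM of wild-type 4, Crisp1 made up 11.7, Gpx5 238 and Lcn8 269. More than 3 reads were reached there by 21 of the 26 genes. All 36 members together took 1.01% of the reads of Srgn-knockout 3, 0.167% of Srgn-knockout 5 and 0.149% of wild-type 4. In the other libraries they took 0.0105% to 0.0159% in Srgn-knockout fat and 0.00422% to 0.0222% in wild-type fat.

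**Figure D1:**
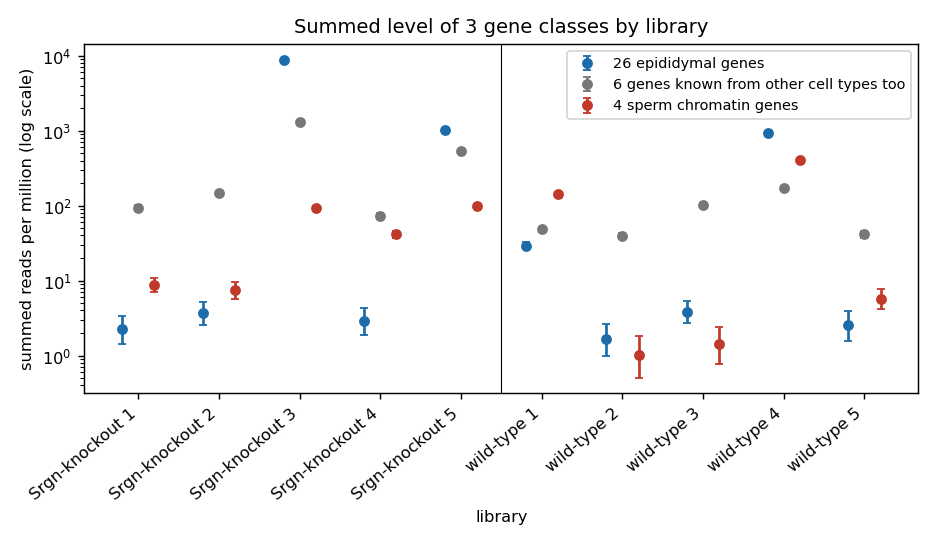
Summed CPM (log scale) of the 26 epididymal genes, the 6 genes also known from other cell types and the 4 sperm chromatin genes in each library, Srgn-knockout libraries at left and wild-type libraries at right, with exact Poisson intervals (95%, counting error only). The epididymal sum is highest in Srgn-knockout 3 (8728 CPM), while the sperm chromatin sum is highest in wild-type 4 (401 CPM).

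The classes were ordered differently over the libraries. The 4 sperm chromatin genes summed to 8.69, 7.45, 93.3, 41.8 and 99.6 CPM in Srgn-knockout 1 to 5 and to 145, 1.02, 1.42, 401 and 5.75 CPM in wild-type 1 to 5. Wild-type 4 was therefore highest, and wild-type 1, which had few epididymal reads, was second. The sperm share of all member reads was 8.25%, 4.67%, 0.922%, 35.6% and 5.98% in Srgn-knockout 1 to 5, against 65.1%, 2.42%, 1.32%, 26.8% and 11.5% in wild-type 1 to 5. It was largest in wild-type 1, then in Srgn-knockout 4 and wild-type 4. This share depends on the other member reads and does not rank the libraries by sperm reads. The 6 genes also known from other cell types took 61.9% of member reads in Srgn-knockout 4, 21.7% in wild-type 1 and 11.6% in wild-type 4. Reads were PCR products without molecular identifiers, so the intervals given with ratios cover counting error only.

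By gene, 24 members peaked in Srgn-knockout 3, 8 in Srgn-knockout 5 and 4 in wild-type 4. The 8 that peaked in Srgn-knockout 5 were Crisp1, Cuzd1, Rnase9, Prom2, Lcn12, Defb19, Spint4 and Pate4, and the 4 of wild-type 4 were all 4 sperm chromatin genes. Of the 26 epididymal genes, 21 were higher in both Srgn-knockout 3 and wild-type 4 than in any of the 7 libraries outside the 3, and 9 were so in Srgn-knockout 5. At least 10 CPM in some library was reached by 31 members. The other 5 peaked below that: Lcn5 at 4.61 CPM in Srgn-knockout 3, and Lcn12 at 3.23, Defb19 at 1.45, Spint4 at 0.779 and Pate4 at 0.556 CPM in Srgn-knockout 5.

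**Figure D2:**
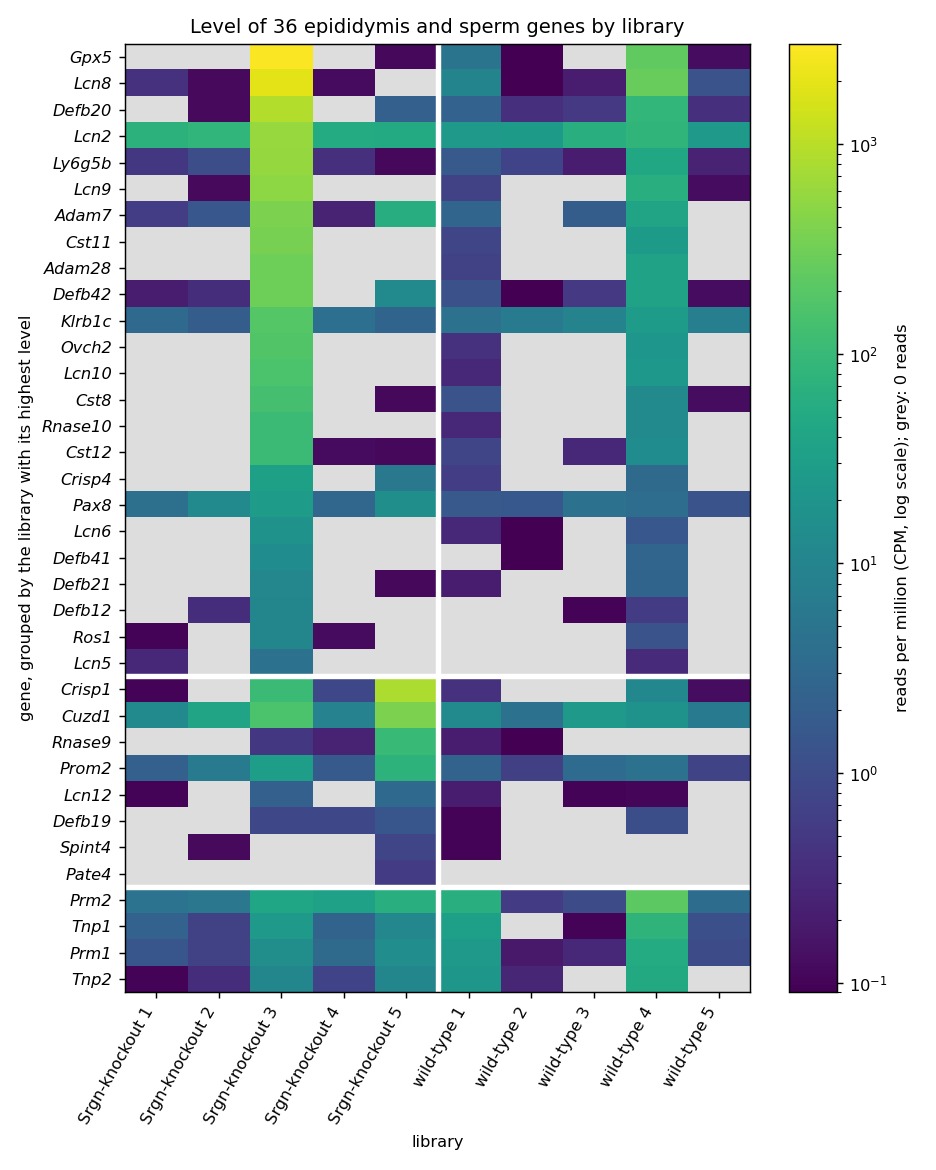
CPM (log colour scale) of the 36 members (rows) in the 5 Srgn-knockout and then the 5 wild-type libraries (columns). Most epididymal rows are high in Srgn-knockout 3 and wild-type 4, a few, such as Rnase9 (103 CPM), are high in Srgn-knockout 5, and the protamine and transition protein rows are highest in wild-type 4.

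Lipocalins, small secreted carriers of hydrophobic molecules, were the role with the most members. Lcn8, a lipocalin of the proximal epididymis, had 0.395, 0.116, 1970.0, 0.122 and 0 CPM in Srgn-knockout 1 to 5, against 9.98, 0.0930, 0.203, 269 and 1.28 CPM in wild-type 1 to 5. The 16232 reads of Srgn-knockout 3 thus faced 0 in Srgn-knockout 5. Lcn9 had 0, 1, 4226, 0 and 0 reads in Srgn-knockout 1 to 5, against 7, 0, 0, 602 and 1 in wild-type 1 to 5. For Lcn10 there were 0, 0, 1283, 0 and 0 reads in Srgn-knockout 1 to 5, against 3, 0, 0, 212 and 0 in wild-type 1 to 5. These lipocalins were high in the same libraries, Srgn-knockout 3 and then wild-type 4, and missing from Srgn-knockout 5. Lcn6 had 0, 0, 150, 0 and 0 reads in Srgn-knockout 1 to 5, against 3, 1, 0, 14 and 0 in wild-type 1 to 5. Lcn5, which binds retinoic acid, had 38 reads in Srgn-knockout 3, 3 in Srgn-knockout 1, 3 in wild-type 4 and 0 elsewhere. Lcn12 was the exception, with 18 reads in Srgn-knockout 3, 29 in Srgn-knockout 5 and 1 in wild-type 4.

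Gpx5, a glutathione peroxidase that caput cells secrete to protect sperm lipids from oxidation, had the largest count of any member. Its reads in Srgn-knockout 1 to 5 were 0, 0, 23162, 0 and 1, against 50, 1, 0, 2189 and 1 in wild-type 1 to 5. That is 2811 CPM in Srgn-knockout 3, 238 CPM in wild-type 4 and 4.89 CPM in wild-type 1. Wild-type 1 was thus a distant but clear next. Ros1, a receptor tyrosine kinase needed in mice to form the initial segment, had 1, 0, 89, 1 and 0 reads in Srgn-knockout 1 to 5, against 0, 0, 0, 12 and 0 in wild-type 1 to 5. Ovch2, a serine protease relative, had 0, 0, 1461, 0 and 0 reads in Srgn-knockout 1 to 5, against 4, 0, 0, 196 and 0 in wild-type 1 to 5. Both again peaked in Srgn-knockout 3 with wild-type 4 next, and had 0 reads in Srgn-knockout 5.

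Cystatins of the epididymis are relatives of cysteine protease inhibitors. Cst8 (CRES) had 0, 0, 1157, 0 and 1 reads in Srgn-knockout 1 to 5, against 13, 0, 0, 118 and 1 in wild-type 1 to 5. With Cst11 the counts were 0, 0, 2958, 0 and 0 reads in Srgn-knockout 1 to 5, against 8, 0, 0, 246 and 0 in wild-type 1 to 5. Cst12 had 0, 0, 897, 1 and 1 reads in Srgn-knockout 1 to 5, against 8, 0, 3, 131 and 0 in wild-type 1 to 5. All 3 were highest in Srgn-knockout 3, at 140.4, 359 and 109 CPM, then in wild-type 4 and wild-type 1, while Srgn-knockout 5 held 0 or 1 read.

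Beta-defensins, cationic peptides of which several coat sperm, followed the lipocalins with less uniformity. Defb20 had 0, 0.116, 899, 0 and 2.22 CPM in Srgn-knockout 1 to 5, against 2.35, 0.372, 0.508, 90.5 and 0.383 CPM in wild-type 1 to 5. Defb42 had 2, 3, 2453, 0 and 113 reads in Srgn-knockout 1 to 5, against 12, 1, 5, 329 and 1 in wild-type 1 to 5. It was therefore present in all 3 libraries. Defb41 was rarer, with 0, 0, 116, 0 and 0 reads in Srgn-knockout 1 to 5, against 0, 1, 0, 25 and 0 in wild-type 1 to 5. Defb21 had 0, 0, 93, 0 and 1 reads in Srgn-knockout 1 to 5, against 2, 0, 0, 24 and 0 in wild-type 1 to 5, and it shared the peak in Srgn-knockout 3. Defb12 counted 0, 3, 90, 0 and 0 reads in Srgn-knockout 1 to 5, against 0, 0, 1, 5 and 0 in wild-type 1 to 5, so that wild-type 4 was barely above the rest. Defb19 was near the floor throughout, with 7, 7 and 13 reads in Srgn-knockout 3, 4 and 5 and 10 in wild-type 4. Ly6g5b, of the Ly6 family of membrane and secreted proteins, had 5, 9, 4774, 3 and 1 reads in Srgn-knockout 1 to 5, against 17, 8, 2, 417 and 2 in wild-type 1 to 5. It was clear in Srgn-knockout 3 and wild-type 4 and had 1 read in Srgn-knockout 5.

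The sperm-binding secreted protein Crisp1 and the RNase A relative Rnase9 separated Srgn-knockout 5 from the other libraries, whereas Rnase10 had 0 reads there. Crisp1, which in mice is made mainly beyond the proximal caput and binds to sperm, had 0.0987, 0, 108, 0.856 and 846 CPM in Srgn-knockout 1 to 5, against 0.391, 0, 0, 11.7 and 0.128 CPM in wild-type 1 to 5. Its relative Crisp4 had 0, 0, 275, 0 and 53 reads in Srgn-knockout 1 to 5, against 6, 0, 0, 30 and 0 in wild-type 1 to 5. Crisp1 was thus highest in Srgn-knockout 5 and Crisp4 in Srgn-knockout 3. Rnase9 had 0, 0, 4, 2 and 922 reads in Srgn-knockout 1 to 5, against 2, 1, 0, 0 and 0 in wild-type 1 to 5. Rnase10 had 0, 0, 907, 0 and 0 reads in Srgn-knockout 1 to 5, against 3, 0, 0, 117 and 0 in wild-type 1 to 5. The 2 genes, whose promoters are printed above, lie next to each other on chromosome 14 with 0 protein-coding genes between them, and were highest in different libraries.

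Of 7 pairs of members adjacent in the genome, 5 had the same highest library, as did 49.2% of all 630 pairs of members. Since the members were chosen by these levels, nothing is read from that count. The chromosome with the most members was 2, with 16 of the 36. Lcn8, Lcn5, Lcn6 and Lcn10 follow each other there and all peaked in Srgn-knockout 3, as did the neighbours Cst12 and Cst8. Prm2 and Prm1, adjacent on chromosome 16, both peaked in wild-type 4. The other exception beside the RNase pair was Defb21 and Defb19, where Defb19 rests on 13 reads at most.

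Adam7 and Adam28 are membrane proteins of the ADAM family, and Adam7 is passed from the epididymis to sperm. Adam7 had 0.592, 1.51, 391, 0.245 and 58.4 CPM in Srgn-knockout 1 to 5, against 2.74, 0, 1.93, 39.4 and 0 CPM in wild-type 1 to 5. It was therefore present in all 3 libraries, with wild-type 1 highest among the rest. Adam28, which lymphocytes are also known to express, had 2497 reads in Srgn-knockout 3, 340 in wild-type 4, 7 in wild-type 1 and 0 in each of the others, Srgn-knockout 5 included.

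Most epididymal genes that were high in Srgn-knockout 3 were also high in wild-type 4, at a lower level. Over the 21 epididymal genes with more than 3 reads in both, the ratio of Srgn-knockout 3 to wild-type 4 had a median of 8.67, and 20 of them lay above 1. It was 7.31 for Lcn8 (95% interval 7.01 to 7.63), 11.8 for Gpx5 (11.3 to 12.4), 8.67 for Rnase10 (7.14 to 10.6) and 9.23 for Crisp1 (7.56 to 11.4). The extremes rest on few reads, 20.1 for Defb12 (8.31 to 63.5) and 0.783 for Defb19 (0.253 to 2.28). The 4 sperm chromatin genes had 0.196 to 0.310. The 6 genes also known from other cell types had 6.47 to 8.21, but for Lcn2, Cuzd1, Prom2 and Pax8 wild-type 4 lay within the range of the 7 libraries outside the 3, so wild-type 4 did not stand apart for these 4. For Prm2 the ratio was 0.196 (0.175 to 0.220).

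**Figure D3:**
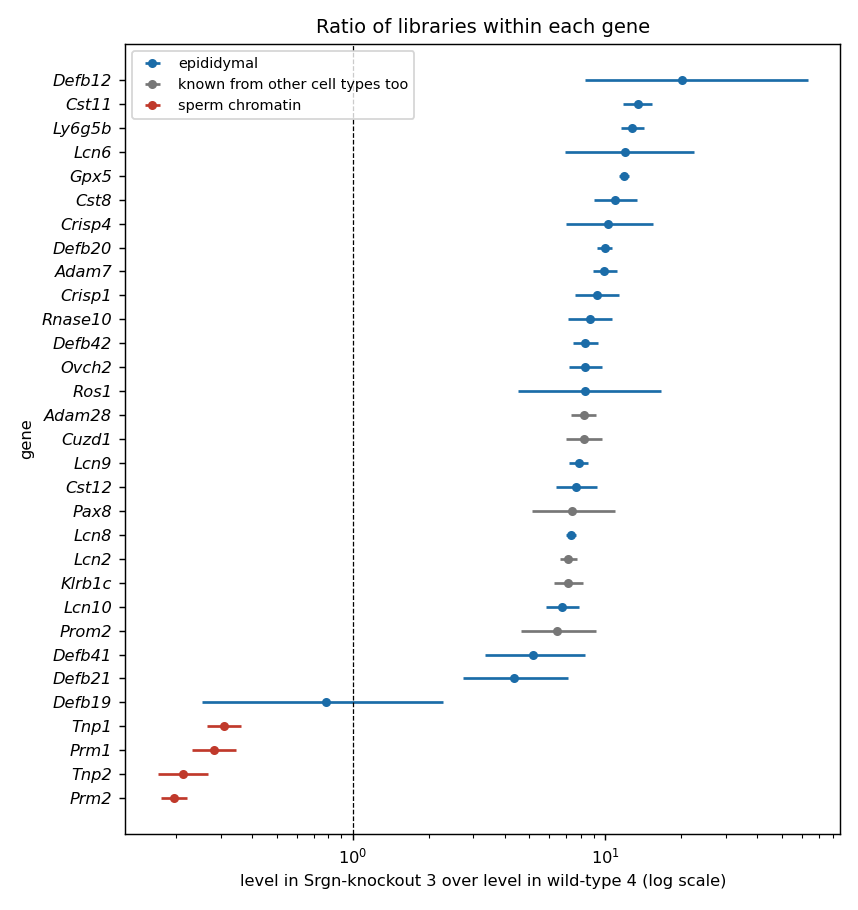
Ratio of CPM in Srgn-knockout 3 to CPM in wild-type 4 (log scale) for each member with more than 3 reads in both libraries, with exact 95% intervals (counting error only). The epididymal genes centre on 8.67 and the 4 sperm chromatin genes lie between 0.196 and 0.310.

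Srgn-knockout 5 had another profile. Of the 26 epididymal genes, 16 had more than 3 reads in Srgn-knockout 3 and 0 or 1 read in Srgn-knockout 5. With Srgn-knockout 5 taken at its 3-read floor, Srgn-knockout 3 was at least 5903-fold higher than Srgn-knockout 5 for Lcn8 and at least 329.9-fold higher for Rnase10. In the other direction, the ratio of Srgn-knockout 3 to Srgn-knockout 5 was 0.128 for Crisp1 (0.119 to 0.137) and 0.00473 for Rnase9 (0.00129 to 0.0122). Adam7 lay between, at 6.70 (6.11 to 7.36). Against wild-type 4, Srgn-knockout 5 was 72.2-fold higher for Crisp1 (59.7 to 88.1) and at least 314.9-fold higher for Rnase9, but at least 807-fold lower for Lcn8. Its 4 sperm ratios to wild-type 4 were 0.143 to 0.292, beside 0.196 to 0.310 for Srgn-knockout 3.

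**Figure D4:**
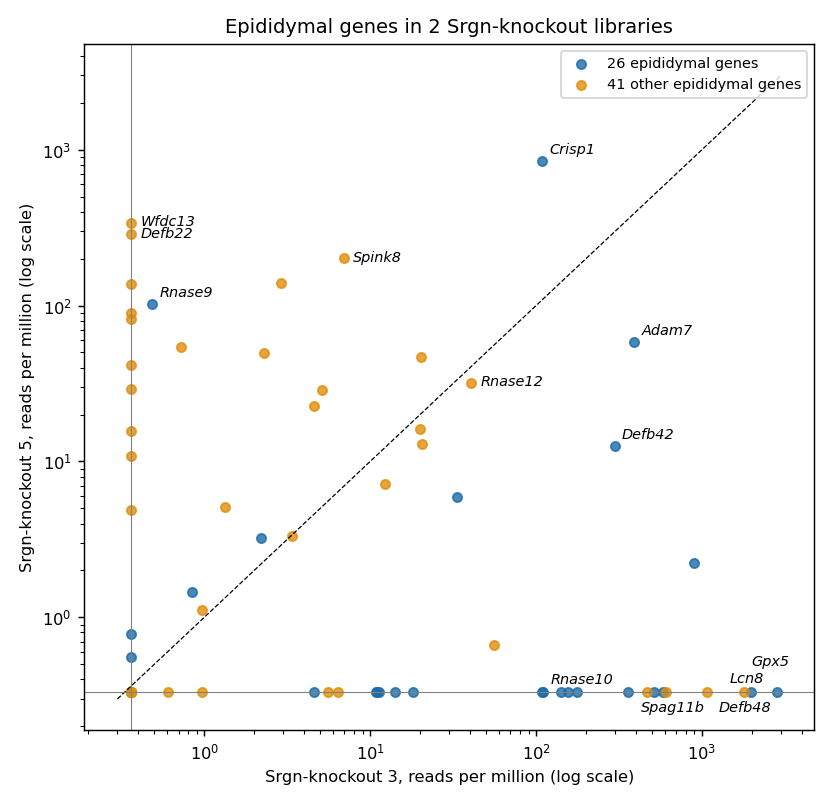
CPM in Srgn-knockout 5 against CPM in Srgn-knockout 3 (both log scales) for the 26 epididymal members and 41 further epididymal genes, with the line of equality dashed. Genes under 3 reads are drawn at the 3-read floor (grey lines). Many genes lie along one floor or the other, as Gpx5 and Lcn8 do for Srgn-knockout 5.

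Markers of the segments followed the same division. The 4 initial segment markers, Ros1, Rnase10, Cst8 and Lcn8, were all highest in Srgn-knockout 3 and summed to 2231 CPM there, 0.111 CPM in Srgn-knockout 5, and 296 CPM for wild-type 4. Gpx5 and Lcn5, used as markers of the caput past the initial segment, summed to 2816 CPM in Srgn-knockout 3, 0.111 CPM in Srgn-knockout 5, and 238 CPM for wild-type 4. Crisp1 was the sole listed marker of distal caput to cauda and was highest in Srgn-knockout 5. These markers are themselves members, so their order is part of how the set was chosen.

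Further secreted epididymal genes that are not members were mostly highest in the same 2 Srgn-knockout libraries. Of 45 listed, 41 had a row and 25 reached 10 CPM. Of these 25, 9 were highest in Srgn-knockout 3, 16 in Srgn-knockout 5 and 0 in wild-type 4. Each reached 10 CPM only within the 3 libraries (at most 8.96 CPM elsewhere, for Aqp9), so that bound largely fixed where they peaked. Of all 41, 13 were highest in Srgn-knockout 3, 19 in Srgn-knockout 5 and 1 in wild-type 4. The list was drawn up with earlier results of these data known, so the split is a description only. The defensins Defb48 and Defb25 had 1794 and 1065 CPM in Srgn-knockout 3, 0.111 CPM each in Srgn-knockout 5, and 219 and 102 CPM in wild-type 4. Spag11b, a defensin-like sperm-binding protein, had 604 CPM in Srgn-knockout 3, 0.334 CPM in Srgn-knockout 5, and 58.6 CPM for wild-type 4. Teddm2, an epididymal membrane protein gene, had 463, 0 and 56.3 CPM in these libraries.

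Genes that are not members were also sought over all amplicons. Among genes that are not members and have at least 10 CPM in the library, 44 of 8918 were more than 10-fold above the highest of the other 7 libraries in Srgn-knockout 3, 40 of 8801 in Srgn-knockout 5 and 13 of 8507 in wild-type 4. Of the members with that level, 22 of 30 in Srgn-knockout 3, 5 of 12 in Srgn-knockout 5 and 15 of 22 in wild-type 4 passed the same bound, as their choice implies. Among the genes that are not members, Srgn-knockout 3 and wild-type 4 shared 12, 27.3% of the 44 of Srgn-knockout 3 and 92.3% of the 13 of wild-type 4. Srgn-knockout 3 and Srgn-knockout 5 shared 5 (Atp10b, C4bp, Eppin, Rnase12 and Wfdc6a, named after the overlap was seen), 11.4% of 44 and 12.5% of 40. Srgn-knockout 5 and wild-type 4 shared 0.

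The leading genes that are not members name these groups. In Srgn-knockout 3 the 8 with the largest ratio were Spag11b, Ly6g5c, Defb25, LOC108167662, Defb48, 9230110F15Rik, Clpsl2 and Gm4846. In wild-type 4 they were Spag11b, Gm4846, Defb48, Gm32017, 9230110F15Rik, Defb25, LOC108167662 and Clpsl2, so 7 of the 8 are in both. In Srgn-knockout 5 they were Defb22, Wfdc13, Spink8, Defb28, Ces5a, Serpina1f, Spint3 and BC048679. Defb22, a defensin of the sperm coat, had 0, 0.116, 0, 0.245 and 287 CPM in Srgn-knockout 1 to 5, against 0.0978, 0.186, 0.102, 0.109 and 0.128 CPM in wild-type 1 to 5. Wfdc13, of the WAP-domain family that includes protease inhibitors, had 339.6 CPM in Srgn-knockout 5 and at most 0.489 CPM in every other library. Spink8, a Kazal-type protease inhibitor gene, had 202 CPM in Srgn-knockout 5 and 6.92 CPM in Srgn-knockout 3, against 1.09 CPM in wild-type 4.

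The 4 sperm chromatin genes were set apart from the epididymal genes by their order over libraries. Prm2, a protamine, had 4.74, 5.70, 42.2, 35.3 and 62.7 CPM in Srgn-knockout 1 to 5, against 64.6, 0.558, 1.02, 215 and 3.58 CPM in wild-type 1 to 5. Prm1, the other protamine, had 1.48, 0.698, 15.5, 3.30 and 14.7 CPM in Srgn-knockout 1 to 5, against 24.8, 0.186, 0.305, 54.8 and 1.02 CPM in wild-type 1 to 5. Both were highest in wild-type 4 with wild-type 1 second, and the genotypes overlapped. The transition protein gene Tnp1 had 2.37, 0.698, 24.6, 2.45 and 11.3 CPM in Srgn-knockout 1 to 5, against 32.7, 0, 0.102, 79.6 and 1.15 CPM in wild-type 1 to 5. Tnp2 had 1, 3, 90, 6 and 97 reads in Srgn-knockout 1 to 5, against 231, 3, 0, 471 and 0 in wild-type 1 to 5. Srgn-knockout 4 was near Srgn-knockout 3 for Prm2 (289 against 348 reads). It was well below Srgn-knockout 3 for Prm1 (27 against 128 reads), Tnp1 (20 against 203) and Tnp2 (6 against 90).

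Wild-type 1 carried sperm genes with little epididymal RNA. It was the highest of the 7 libraries outside the 3 for 4 of 4 sperm genes, for 17 of 26 epididymal genes and for 1 of the 6 others. Its ratio to wild-type 4, a pair chosen after the values were seen, was 0.300 to 0.452 for the sperm genes, against a median of 0.0334 over the 13 epididymal genes with more than 3 reads in both.

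Other genes of late spermatids and the sperm tail, none of them a member, shared the peak in wild-type 4. All 15 listed were highest there, but 7 of them reached 10 CPM, and Tssk6 was barely higher there (5.64 CPM) than in wild-type 1 (5.09 CPM). The list was drawn up with earlier results of these data known, so the count is a description only. The sums of the 15 were 13.5, 6.75, 44.1, 35.7 and 115 CPM in Srgn-knockout 1 to 5, against 58.8, 3.16, 4.37, 238 and 6.39 CPM in wild-type 1 to 5. Here Srgn-knockout 5, not wild-type 1, came next. Odf1, a protein of the outer dense fibres, had 7.40 CPM in Srgn-knockout 3, 37.8 CPM in Srgn-knockout 5, 11.3 CPM in wild-type 1 and 60.8 CPM in wild-type 4. Smcp, of the sperm mitochondrial capsule, had 9.34, 34.8, 8.51 and 41.7 CPM in these libraries. Oaz3, a spermatid antizyme, had 5.22, 14.5, 8.61 and 35.6 CPM there, and the sperm glycolytic enzyme gene Gapdhs had 3.28, 4.0, 5.58 and 23.1 CPM. Among these 4 libraries, Srgn-knockout 3 was lowest for Odf1, Oaz3 and Gapdhs. Among earlier germ cell genes, Zbtb16, which is not specific to germ cells, had 38.1 to 163 CPM over the libraries and was highest in Srgn-knockout 4. Dazl had at most 0.111 CPM in any library, and Ddx4 peaked at 2.39 CPM in wild-type 4. Sycp3, a meiotic gene, was highest in wild-type 5 at 19.6 CPM, so it did not share that peak.

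**Figure D5:**
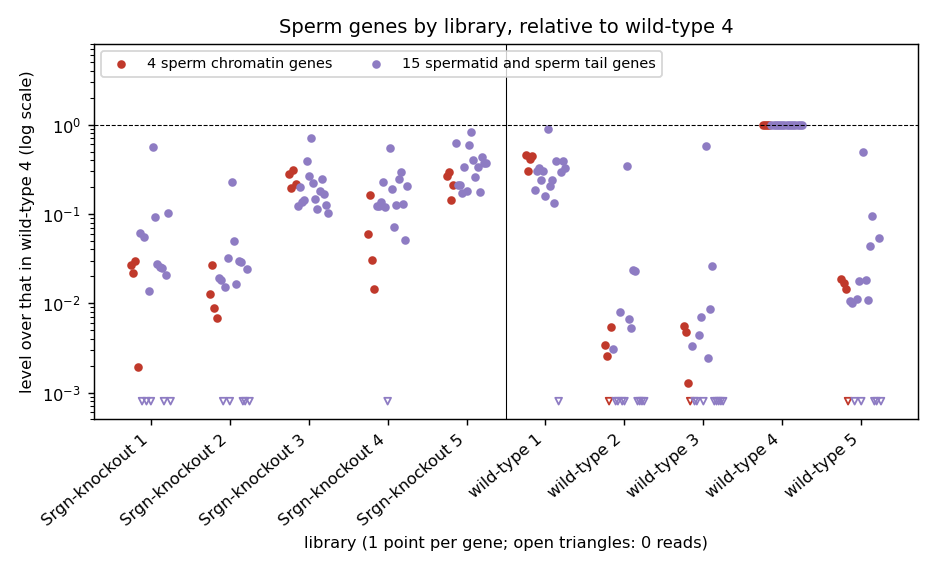
Level of the 4 sperm chromatin genes and of the 15 spermatid and sperm tail genes in each library relative to wild-type 4 (log scale; 1 point per gene, open triangles for 0 reads), Srgn-knockout libraries at left and wild-type libraries at right. Wild-type 1 lies nearest to wild-type 4 for the sperm chromatin genes, at 0.300 to 0.452, and Srgn-knockout 3 and 5 lie at 0.196 to 0.310 and 0.143 to 0.292.

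Of the 6 members known from other cells too, 3 are genes of epithelia. Cuzd1, a secretory epithelial protein with CUB and zona pellucida domains, had 13.0, 40.02, 154, 8.93 and 384 CPM in Srgn-knockout 1 to 5, against 13.3, 4.46, 24.5, 18.8 and 6.65 CPM in wild-type 1 to 5. Prom2, a cholesterol-binding membrane protein of epithelia, had 2.17, 6.51, 29.5, 1.71 and 76.5 CPM in Srgn-knockout 1 to 5, against 2.45, 0.651, 3.46, 4.56 and 0.767 CPM in wild-type 1 to 5. Both were highest in Srgn-knockout 5, but every library held some reads. Pax8, a transcription factor of reproductive tract, thyroid and kidney epithelia, had 4.15, 12.7, 27.2, 2.81 and 16.4 CPM in Srgn-knockout 1 to 5, against 1.66, 1.58, 4.37, 3.69 and 1.28 CPM in wild-type 1 to 5. Srgn-knockout 2, which had 3.72 CPM of epididymal genes in sum, came next after Srgn-knockout 3 and 5 for each of these 3 genes. The 12 luminal epithelial markers, Epcam and Krt8 among them, had sums of 75.0, 208, 332, 88.2 and 187 CPM in Srgn-knockout 1 to 5, against 118, 73.7, 129, 113 and 72.0 CPM in wild-type 1 to 5. By gene, 9 of these 12 markers were highest in Srgn-knockout 3 and 2 in Srgn-knockout 5. The remaining 1, Krt19, was highest in Srgn-knockout 2 at 79.9 CPM and had reads in every library. The part of these markers in the levels of Cuzd1, Prom2 and Pax8 was not tested.

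Klrb1c and Lcn2 are best known from immune and inflamed tissue. Klrb1c, the NK cell receptor NK1.1, had 3.16, 1.98, 193, 4.04 and 2.56 CPM in Srgn-knockout 1 to 5, against 4.60, 6.69, 9.66, 27.0 and 7.67 CPM in wild-type 1 to 5. It was thus highest in Srgn-knockout 3, then in wild-type 4, with a ratio of 7.14 (6.24 to 8.19). The 7 other NK cell markers, with Ncr1 and Nkg7 among them, summed to 10.8 CPM in Srgn-knockout 3, against 10.6 CPM in wild-type 4, the lowest sum in each genotype. Lcn2, a lipocalin that binds bacterial siderophores, had 71.9, 86.9, 590.4, 55.2 and 52.6 CPM in Srgn-knockout 1 to 5, against 25.5, 26.1, 60.7, 82.6 and 25.3 CPM in wild-type 1 to 5. In Srgn-knockout 3 the 7 neutrophil markers summed to 20.1 CPM, within the 8.22 to 65.9 CPM of the 7 libraries outside the 3. The acute-phase genes differed: Orm1 was highest in Srgn-knockout 3 (1135 CPM, beside 678 to 1093 CPM over those 7), while Hp (4385 CPM, beside 3188 to 12067 CPM) and Saa3 (47.0 CPM, beside 16.1 to 479 CPM) lay within that range. Saa2 lay below it, with 0 reads in Srgn-knockout 3, beside 0.391 to 4.44 CPM over those 7. The part of these genes in the level of Lcn2 was not tested.

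Other cell types of the tract gave less signal. The 4 basal cell markers summed to 7.22 to 41.3 CPM in Srgn-knockout libraries, highest in Srgn-knockout 3, and to 6.77 to 17.4 CPM in wild-type libraries. The basal cell keratin gene Krt5 had 8.37 CPM in Srgn-knockout 3, 1.89 CPM in Srgn-knockout 5, and 0.977 CPM for wild-type 4, and at most 0.203 CPM elsewhere. Trp63 (14.7 CPM) and Cldn1 (12.7 CPM) were also highest in Srgn-knockout 3, but Trp63 had 7.68 CPM in Srgn-knockout 5 and 8.03 CPM for wild-type 4, below the 8.61 CPM of Srgn-knockout 2. Krt14 was highest in wild-type 1, at 9.39 CPM, with 5.46 CPM in Srgn-knockout 3. The 4 clear and narrow cell markers summed to 6.22 to 18.2 CPM in Srgn-knockout libraries and 5.10 to 11.4 CPM in wild-type libraries, mostly from Atp6v0a4, which had reads in every library and was highest in Srgn-knockout 2. Atp6v1g3, a proton pump subunit, had 22 reads in Srgn-knockout 3, 17 in Srgn-knockout 5 and 8 in wild-type 4, and 0 in each of the other 7. The 3 prostate markers had 0 reads in all 10 libraries. Of 7 listed vas deferens and seminal vesicle markers, the 5 with a row summed to at most 2.0 CPM, reached in Srgn-knockout 5. Akr1b7 held 17 of the 18 reads there, with 2 reads in wild-type 4, 1 in wild-type 3 and 0 in each of the others. The 5 Sertoli and Leydig cell markers with a row summed to 11.8, 13.0, 16.7, 16.4 and 33.4 CPM in Srgn-knockout 1 to 5, against 16.4, 10.1, 11.1, 11.3 and 9.46 CPM in wild-type 1 to 5. The list did not move as 1: Cyp17a1 (16.7 CPM) and Cldn11 (9.34 CPM) were highest in Srgn-knockout 5, Cyp11a1 in Srgn-knockout 3 (2.55 CPM), Amh in wild-type 1 (2.15 CPM) and Star in wild-type 5 (6.52 CPM).

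Between the genotypes, 0 of the 9 members that passed the filter on low counts were called by edgeR's quasi-likelihood test at an adjusted p under 0.05. Over all 12719 genes tested, 1 was called (0.00786%), Srgn, with a log2 fold change of -8.18 (SE 0.508, adjusted p = 9.44e-05). The 9 members were Lcn2, Adam7, Cuzd1, Prom2, Pax8, Klrb1c, Prm1, Prm2 and Tnp1, and the other 27 had enough reads in too few libraries. The 3 libraries that chose the members also enter this comparison, 2 of them Srgn-knockout and 1 wild-type. For all 9 the 2 groups overlapped, while over all genes tested 2.76% did not overlap. At an unadjusted p under 0.05 there were 4 members, beside 1632 of all genes (12.8%). DESeq2 called 1 member, Pax8, and 1.78% of all genes, and limma-voom called 0 members.

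Libraries of the same genotype spread widely for these genes. Pax8 averaged 12.6 ± 9.93 CPM in Srgn-knockout fat and 2.52 ± 1.41 CPM in wild-type fat (SD, n = 5 each; log2 fold change 2.26, SE 0.609, edgeR adjusted p = 0.22). Cuzd1 averaged 119.9 ± 159 CPM in Srgn-knockout fat and 13.5 ± 8.33 CPM in wild-type fat (log2 fold change 3.09, SE 1.04, edgeR adjusted p = 0.284). Prom2 (log2 fold change 3.23, adjusted p = 0.276), Adam7 (3.28, 0.52), Lcn2 (1.90, 0.353) and Klrb1c (1.81, 0.6) had positive values in edgeR too. The sperm genes had negative values that did not pass in edgeR, -1.25 for Prm1 (adjusted p = 0.726), -0.98 for Prm2 (0.803) and -1.52 for Tnp1 (0.689). Prm2 averaged 30.1 ± 24.9 CPM in Srgn-knockout fat and 56.9 ± 92.5 CPM in wild-type fat.

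The median log2 fold change of the 9 members was 1.90, beside -0.00138 for all genes tested. Without the 3 libraries that chose the members it was -0.16, again with 0 of 9 called and a smallest adjusted p of 0.999 in edgeR. In that fit Adam7 had -0.62 and Klrb1c -1.24, and Pax8 1.49. At an unadjusted p under 0.05 in edgeR there were 3 of the 9 members in that fit, beside 540 of all 12947 genes tested. With no filter on low counts all 36 members were tested and 0 were called, beside 3 of all 22249 amplicons tested (0.0135%), and the smallest adjusted p of a member was 0.379 in edgeR.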

How the data were processed

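Ion AmpliSeq libraries of total RNA from fat of 10 mice, 5 per genotype as the labels state, were analysed as deposited. The authors deposited raw counts, whole-number reads per amplicon, and RPM values, each equal to the raw count scaled by its column total (largest difference 0.000591). Per the submitters' processing notes the genome build was mm9; the sources used here name no aligner or read counter. CPM were computed from the raw counts by library total. The counts hold no strand information, and reads of close relatives within the defensin, lipocalin and cystatin families may be shared.

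Genotypes were compared with edgeR 4.0.16 (R 4.3.3; quasi-likelihood test, robust, TMM factors, filterByExpr with minimum count 10 and minimum total count 15, two-sided), with Benjamini-Hochberg adjustment over all genes tested. DESeq2 1.42.0 and limma 3.58.1 (voom) were alternatives, with other scaling factors, no filter, and each library left out. Labels do not say whether a number pairs animals. P-values set the difference between genotypes against the spread between these libraries. Ratios of 2 libraries carry exact conditional binomial intervals, and sums exact Poisson intervals (scipy 1.17.1). Bounds of at least N-fold use 3 reads per library.

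The members and lists were chosen with earlier results of these data known. Srgn and all members are named. Members reaching 10 CPM have values by library, the rest ranges or counts. Lists are given by count, with up to 4 genes of highest CPM. For each of the 3 libraries the 8 other genes with the largest ratio to the highest of the other 7 libraries are named. Dazl and Amh, outside this rule, were chosen after their values were seen.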

Additional observations from a re-analysis of the deposited data

Results flagged for a closer look

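Within each genotype of 5 libraries, a library was listed here when its gap to the nearest other library exceeded 0.71 of the whole range. The rate of about 1 in 20 groups attached to this bound is for normally distributed values. It does not hold for genes with few or no reads in most libraries. A gene with reads in only 1 library of a genotype has a gap of 1.0 at any count. Examples are Spint4 in wild-type 1, on 1 read, and Lcn5 in wild-type 4, on 3 reads. The members were chosen for libraries that stand apart, so the number of listings is no result. The summed level of all 36 members was listed for Srgn-knockout 3 (0.84 of the range) and wild-type 4 (0.88), and that of the 26 epididymal genes for Srgn-knockout 3 (0.88) and wild-type 4 (0.97). By gene, Srgn-knockout 3 was listed 23 times with 0.82 to 1.0, Srgn-knockout 5 4 times with 0.85 to 1.0, wild-type 4 24 times with 0.77 to 1.0, and wild-type 1 once.

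In Srgn-knockout 3 the gap was 1.0 for Lcn6, Lcn8, Lcn9, Lcn10, Adam28, Cst8, Cst11, Cst12, Rnase10, Gpx5, Ovch2, Defb20, Defb41 and Ly6g5b. It was 0.99 for Ros1, Defb21 and Klrb1c, 0.97 for Defb12, 0.96 for Defb42, 0.94 for Lcn2 and Lcn5, 0.85 for Adam7 and 0.82 for Crisp4. In Srgn-knockout 5 it was 1.0 for Rnase9 and Pate4, 0.87 for Crisp1 and 0.85 for Spint4. Pate4 and Spint4 rest on 5 and 7 reads.

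In wild-type 4 the gap was 1.0 for Lcn5 and Ros1, and 0.99 for Lcn9 and Lcn10. It was 0.98 for Adam28, Rnase10, Gpx5, Ovch2 and Defb20, and 0.97 for Crisp1, Cst11, Defb41, Defb42 and Ly6g5b. Lower values were 0.96 for Lcn8, 0.94 for Cst12, 0.93 for Adam7, 0.92 for Defb21, 0.91 for Defb19, 0.9 for Cst8, 0.82 for Crisp4, 0.81 for Lcn6 and Defb12, and 0.77 for Klrb1c. In wild-type 1 it was 1.0 for Spint4, which rests on 1 read. The 4 sperm chromatin genes were not listed in any library.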

How the results depend on the processing

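The highest library of each member was the same with TMM, RLE, upper-quartile and library-total scaling. In the comparison of genotypes, DESeq2 called 118 genes higher and 108 lower, and 1 member higher, whereas edgeR called 0 and 1. No adjusted p was given by DESeq2 for 2 members. With no filter edgeR called 3 genes lower. Leaving out each library in turn, 1 to 2 genes were called lower (2 without Srgn-knockout 1 and 2 without wild-type 5) and 0 members were called. Some log2 fold changes that passed no test changed sign. With limma-voom they were -0.53 for Klrb1c, 0.52 for Prm1, 1.22 for Prm2 and 1.19 for Tnp1. Without the 3 libraries that chose the members they were -0.62 for Adam7 and -1.24 for Klrb1c. Leaving out each library in turn gave -1.97 to 2.47 for Klrb1c, -1.74 to 0.10 for Prm1 and -1.43 to 0.79 for Prm2. Causes of these changes were not tested. No paired analysis was possible because the replicate numbers follow accession order and the labels carry none. Depth limits genes near 3 reads, which is 0.279 to 0.383 CPM, and intervals cover counting error only.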
